A study of Mus musculus with 2 samples.

Results

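Apoe, Clu, Apod, Apoc1, Abca1, Abcg1, Lcat, Lpl and Lrp1 code for apolipoproteins, lipid exporters, lipoprotein enzymes and a lipoprotein receptor of the brain. They were taken from the counts by their gene symbols, as 9 of the 32285 genes counted, with 1 row each. The rule that picks them uses symbols and no measured value, but the list was drawn up with earlier results of these data known. The counts come from 2 libraries of single cells, replicates 1 and 2 of 1 group, for which the striatum of adult mice, 8 to 10 weeks old and without treatment, was dissociated, and which the labels describe as glia enriched. The labels give the strain as C57/Bl6J, while their protocol names C57BL/6NTac, and they name no transgene or deleted gene. The study used this tissue to ask how Crym+ astrocytes, which express the gene for µ-crystallin, differ from Crym- astrocytes of the same region. Nothing in the labels says which mice went into which library. The p-values below measure how far differences between classes vary between the 2 libraries, after the overall shift between libraries is removed. This spread may be technical.

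Neurons and glia exchange cholesterol and phospholipid through small lipoprotein particles made inside the brain, since plasma lipoproteins hardly cross the blood-brain barrier. Astrocytes are the best known source of the apolipoprotein ApoE, and ATP-binding cassette (ABC) transporters in the cell membrane load lipid onto it. The enzyme LCAT then esterifies the cholesterol of the particle, lipoprotein lipase splits triglycerides, and cell surface receptors take particles up.

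The libraries held 44597660 and 37982720 unique molecular identifiers (UMIs), the counted mRNA molecules, in 6978 and 5437 barcodes, of which 9 barcode sequences occurred in both. After removal of cells with fewer than 300 detected genes and of predicted doublets, 12023 cells were left. Clustering without the 9 genes gave 9 classes that held 20 or more cells per library, named from fixed markers as astrocyte-like, oligodendrocyte-like, oligodendrocyte precursor (OPC)-like, neuroblast-like, neuron-like, microglia-like, macrophage-like, endothelial-like and mural-like. A red blood cell-like cluster of 96 cells, 11 of them in library 2, entered no test. Levels are given in CPM, the UMIs of a gene per 1000000 UMIs summed over the cells of a class in a library. Beside them stands an estimate of free RNA, the RNA of lysed cells that is caught in every droplet, taken from markers of the other classes. It is scaled from the pooled cells of a library and not from empty droplets. In the 11 red blood cell-like cells of library 2 it was 0, although they held 325 UMIs of Apoe. The estimate can thus be too low, and a level above it need not be a class's own. In the 9 classes the markers of other classes reached between 3.81% and 17.7% of their level in all cells of the library. The lowest share was in the astrocyte-like cells of library 2 and the highest in the neuron-like cells of library 1. Median UMIs per cell ran from 1743 in the astrocyte-like cells of library 1 to 12211.5 in the oligodendrocyte-like cells of library 2.

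Each of the 9 genes had its own distribution over the classes. Clu, Apoc1 and Lcat were highest in astrocyte-like cells, Apod in oligodendrocyte-like cells and Lpl in neuron-like cells, and in each case that class was above each of the other 8 (edgeR quasi-likelihood test, Benjamini-Hochberg adjusted p under 0.05 in every pair). This held for 5 of the 9 genes, and for 42% of the 15551 genes tested. For Apoe, Abca1, Abcg1 and Lrp1 the highest class of the fit was above 7 of the other 8 and did not pass the test against the class next to it. Over the 36 pairs of classes, 210 of the 324 combinations of gene and pair passed, where 50.4% of all combinations did.

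**Figure D1:**
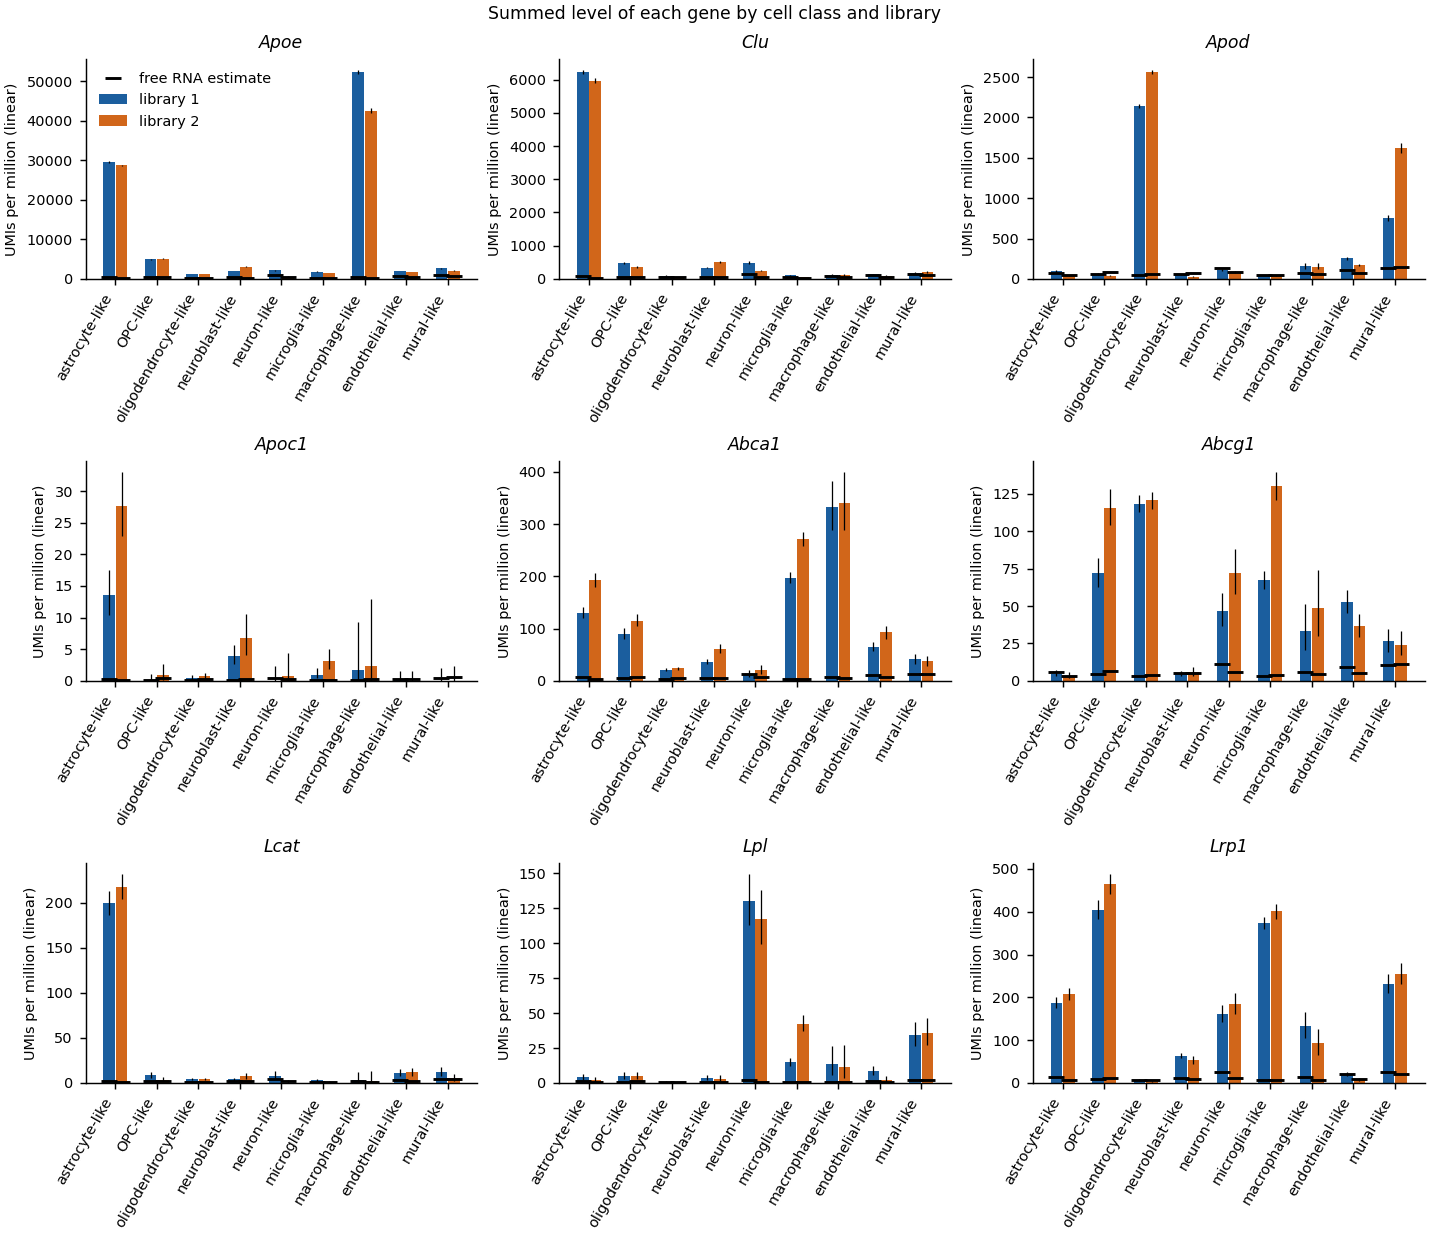
Bars give the level of each gene in CPM on a linear axis, for 9 cell classes in library 1 (blue) and library 2 (orange). Lines on the bars are exact 95% Poisson intervals, which cover counting error only, and black dashes are the free RNA estimate. Clu and Lcat stand out in astrocyte-like cells, Apod in oligodendrocyte-like and mural-like cells, Lpl in neuron-like cells and Apoe in macrophage-like and astrocyte-like cells, while Abca1, Abcg1 and Lrp1 spread over several classes.

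Apoe lies on the minus strand of chromosome 7 (GRCm38, chr7:19696109-19699188). Its level was 52374 CPM in library 1 and 42545 CPM in library 2 in macrophage-like cells, and 29569 and 28722 CPM in astrocyte-like cells. The libraries of these 2 classes did not overlap, but the difference of 0.90 on the log2 scale (SE 0.36) did not pass the test (adjusted p = 0.0514). Both classes were far above the rest. OPC-like cells followed with 4935 and 5075 CPM, below astrocyte-like cells by a log2 difference of 2.82 (SE 0.38, adjusted p = 1.24e-05). The other 6 classes lay between 569 and 3118 CPM, and among them only the step from microglia-like to neuron-like cells passed the test between neighbours (log2 0.97, SE 0.36, adjusted p = 0.0264). Microglia-like cells had 1831 and 1421 CPM, so in library 1 neuron-like cells were the higher in CPM. The test scales by TMM factors, which correct for differences in composition. These were 0.768 and 0.797 for microglia-like cells and 1.24 and 1.26 for neuron-like cells. In neuron-like cells Apoe was 2183 CPM in library 1 and 569 CPM in library 2, and the free RNA estimate was 953 and 407 CPM. The summed level of the 9 astrocyte markers in the neuron-like cluster of a finer clustering was likewise higher in library 1, at 1985 against 759 CPM. What free RNA adds to Apoe there was not tested.

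Almost every cell held a UMI of Apoe, so the share of such cells says little. It was 99.4% and 99.1% in astrocyte-like cells and 95.2% and 93.3% in oligodendrocyte-like cells. Red blood cell-like cells, which should lack the gene, reached 85.9% in library 1 (73 of 85 cells, exact 95% interval 76.6 to 92.5%) at a median of 8895 UMIs. When every cell was thinned to 1000 UMIs, astrocyte-like cells kept 99.2% and 99.3%, oligodendrocyte-like cells 59.1% and 53.3%, and red blood cell-like cells of library 1 36.1%. In astrocyte-like cells of at least 1000 UMIs the 10th and 90th percentiles of Apoe were 8159 and 57637 CPM in library 1 and 9577 and 52133 CPM in library 2.

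The macrophage-like class was not uniform. It lacked any UMI of its 7 fixed markers, among them Mrc1, Pf4 and Lyve1, in 5 of 94 cells in library 1 and in 22 of 75 cells in library 2. In these 22 cells Apoe was 697 CPM, against 57694 CPM in the other 53, and Cd3d and Nkg7, genes of T cells and natural killer cells that were looked up after the data had been seen, were both at 471 CPM, against 0 in the other 53. The median depth was alike, with 5083 and 5733 UMIs. In the cells with a marker UMI alone, Apoe was 54085 CPM in library 1 and 57694 CPM in library 2. When those cells stood for the class, and the mixed mural-like and neuroblast-like classes described below were trimmed as well, macrophage-like cells were above astrocyte-like cells by 1.13 on the log2 scale (SE 0.33, adjusted p = 0.0100), and Apoe passed against all 8 other classes.

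Clu codes for clusterin, also called apolipoprotein J, a secreted chaperone that is carried on brain lipoprotein particles (plus strand, chr14:65968483-65981547). In astrocyte-like cells it was at 6228 and 5969 CPM, and no other class exceeded 517 CPM in either library. The smallest difference, against neuroblast-like cells, was 3.90 on the log2 scale (SE 0.32, adjusted p = 2.89e-08). Neuroblast-like, OPC-like, neuron-like and mural-like cells, next in that order, did not pass against their neighbours. The place of neuroblast-like cells rested on ependymal-like cells in that class, which held 47.3% and 85.7% of its Clu UMIs. Without them it was at 192 and 87.8 CPM, and in the fit with the mixed classes trimmed OPC-like cells (log2 1.36, SE 0.25, adjusted p = 0.000180) and neuron-like cells (log2 1.18, SE 0.25, adjusted p = 0.000623) were above it. Clu and Apoe thus shared the astrocyte-like class, but macrophage-like cells had Clu at only 108 and 116 CPM, where the free RNA estimate was 72.8 and 43.2 CPM.

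Apod codes for a lipocalin that binds arachidonic acid and other small lipids and is made by oligodendrocytes and by fibroblasts of the brain coverings (minus strand, chr16:31296192-31314808). Oligodendrocyte-like cells had 2141 and 2567 CPM and mural-like cells 755 and 1621 CPM, a difference of 1.51 on the log2 scale (SE 0.38, adjusted p = 0.00261). Endothelial-like cells had 256 and 171 CPM and macrophage-like cells 157 and 151 CPM. The other 5 classes lay between 27.3 and 110 CPM, where the free RNA estimate was between 42.5 and 134 CPM. Whether cells of these classes held Apod of their own was not tested. In the finer OPC-like cluster led by Bmp4 and Gpr17, described below, Apod was 119 and 146 CPM, above its free RNA estimate in both libraries. Of the cells of that cluster, 183 fell into the OPC-like class and 90 into the oligodendrocyte-like class. A UMI of Apod was present in 92.9% and 97.3% of oligodendrocyte-like cells and in 25.6% and 13.5% of neuroblast-like cells, at median depths of 11106.5 and 12211.5 against 3388.5 and 4162 UMIs. After thinning to 1000 UMIs the shares were 79.3% and 82.3% against 9.15% and 3.97%.

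Apoc1, a small apolipoprotein known in plasma for inhibiting lipid transfer and lipase, was sparse. Its gene lies on the same strand as Apoe, 3448 bases beyond the end of it (chr7:19689481-19692660). Astrocyte-like cells held 59 UMIs in library 1 (13.6 CPM, exact 95% interval 10.4 to 17.5) and 119 in library 2 (27.6 CPM, 22.9 to 33.1), so the libraries of the highest class themselves differed. Neuroblast-like cells came next with 28 and 20 UMIs (3.97 and 6.82 CPM), lower by a log2 difference of 1.87 (SE 0.36, adjusted p = 0.000235). Ependymal-like cells held 32.1% and 65.0% of these UMIs, and without them the class was at 2.91 and 2.83 CPM. The pairing with Apoe did not carry over to macrophage-like cells, which held 31420 and 18363 UMIs of Apoe and 1 UMI of Apoc1 in each library. Per 10000 UMIs of Apoe there were 4.60 and 9.62 UMIs of Apoc1 in astrocyte-like cells, and 0.318 and 0.545 in macrophage-like cells. The ratio was not highest in astrocyte-like cells. It was 19.3 and 21.9 in neuroblast-like cells and 5.34 and 21.8 in microglia-like cells, from fewer UMIs of both genes.

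The exporters Abca1 and Abcg1 took different places. Abca1, which passes cholesterol and phospholipid to lipid-poor apolipoproteins, was highest in the immune classes, followed by astrocyte-like cells. Abcg1, which passes sterol on to particles that already hold lipid, was high in oligodendrocyte-like, microglia-like and OPC-like cells and at the free RNA estimate in astrocyte-like cells.

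Abca1 lies on the minus strand of chromosome 4 (chr4:53030787-53159895). It reached 333 and 341 CPM in macrophage-like cells, 197 and 271 CPM in microglia-like cells and 130 and 192 CPM in astrocyte-like cells. OPC-like cells had 89.3 and 116 CPM, and the lowest values, 13.5 and 20.0 CPM, were those of neuron-like cells. Library 2 was the higher in 8 of the 9 classes. Macrophage-like cells were not above microglia-like cells past the threshold (log2 0.35, SE 0.17, adjusted p = 0.194), unless the 3 mixed classes were trimmed (log2 0.56, SE 0.13, adjusted p = 0.00727). Microglia-like cells were above astrocyte-like cells by 0.96 on the log2 scale (SE 0.16, adjusted p = 7.07e-05), and these above OPC-like cells by 0.92 (SE 0.17, adjusted p = 0.000271).

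Transcription of Abca1 is known to be raised by liver X receptors (LXR), nuclear receptors for oxysterols that bind a direct repeat of AGGTCA with 4 bases between its copies. The window of 300 bases around its start in RefSeq (GRCm38.p6, minus strand, chr4:53159846-53160145, 250 bases before the start and 50 after it) is printed here because it holds a relaxed form of that repeat. Capitals mark, from left to right, the E-box CACGTG, the relaxed repeat on the opposite strand and the TATA box TATAAA.

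Abca1: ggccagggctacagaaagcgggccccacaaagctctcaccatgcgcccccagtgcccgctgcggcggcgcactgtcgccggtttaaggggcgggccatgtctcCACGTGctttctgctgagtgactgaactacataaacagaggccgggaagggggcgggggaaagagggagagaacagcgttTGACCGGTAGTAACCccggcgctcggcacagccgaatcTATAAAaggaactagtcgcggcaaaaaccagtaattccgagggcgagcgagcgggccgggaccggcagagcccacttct

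On both strands, the relaxed repeat, which is GGTNA and GGTCA with 5 bases between them and whose letters were chosen to admit the form at Abca1, occurred in 0.207% of the 32851 promoter windows of RefSeq, CACGTG in 7.15% and TATAAA in 13.6%. The strict repeat was in 5 of them and not in that of Abca1. RefSeq windows were at hand for 5 of the 9 genes. Those of Lcat, Lrp1 and Apod held none of these letters, and of the 3 windows of Apoe 1 held TATAAA.

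Abcg1 (plus strand, chr17:31057675-31117988) had 118 and 121 CPM in oligodendrocyte-like cells, 67.2 and 130 CPM in microglia-like cells and 72.1 and 116 CPM in OPC-like cells. The libraries of microglia-like cells lay on either side of those of oligodendrocyte-like cells, and the difference did not pass (log2 0.43, SE 0.23, adjusted p = 0.118). Neuron-like cells had 47.0 and 71.9 CPM. Astrocyte-like cells, at the other end, held 21 UMIs in 1324 cells and 15 UMIs in 984 cells, or 4.84 and 3.48 CPM, beside a free RNA estimate of 6.04 and 3.25 CPM. They were below 7 of the other 8 classes and did not pass against neuroblast-like cells (log2 difference 0.24, SE 0.45, adjusted p = 0.657). In the pair of astrocyte-like and microglia-like cells, both ABC genes were thus higher in the latter.

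Lcat codes for lecithin-cholesterol acyltransferase (minus strand, chr8:105939551-105943382) and had the clearest single source. Astrocyte-like cells had 199 and 218 CPM, and every other class was at 11.9 CPM or less in both libraries. Endothelial-like cells, the nearest with 11.2 and 11.8 CPM, were lower by a log2 difference of 4.05 (SE 0.36, adjusted p = 4.07e-08). Lcat was found in 30.4% and 41.8% of astrocyte-like cells and in 4.34% and 4.48% of the deeper oligodendrocyte-like cells. With 1000 UMIs per cell these shares were 16.4% and 16.1% against 0.557% and 0.369%.

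Lpl codes for lipoprotein lipase (plus strand, chr8:68880491-68907448). Neuron-like cells had 131 and 117 CPM, mural-like cells 34.0 and 35.6 CPM and microglia-like cells 15.1 and 42.5 CPM. The neuron-like level was above that of microglia-like cells by 1.47 on the log2 scale (SE 0.36, adjusted p = 0.00159) and above that of mural-like cells by 1.61 (SE 0.39, adjusted p = 0.00206). Macrophage-like cells had 13.3 and 11.6 CPM from 8 and 5 UMIs, and no other class exceeded 8.53 CPM. The gene was seen in 24.2% and 22.3% of neuron-like cells, against 1.21% and 0.915% of astrocyte-like cells, at median depths of 2448.5 and 2638.5 against 1743 and 2811.5 UMIs.

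Lrp1, a large endocytic receptor that takes up ApoE-bearing particles (minus strand, chr10:127538161-127621148), was above the free RNA estimate in both libraries in 7 of the 9 classes. OPC-like cells had 404 and 465 CPM, microglia-like cells 374 and 401 CPM, mural-like cells 232 and 255 CPM, astrocyte-like cells 187 and 208 CPM and neuron-like cells 161 and 185 CPM. The order of the leading pair turned with the scaling. In CPM, OPC-like cells were higher, and with library sizes alone microglia-like cells were lower by 0.17 on the log2 scale. With TMM factors, which correct for differences in composition, microglia-like cells were higher by 0.54 (SE 0.26, adjusted p = 0.0848), and neither scaling passed the test. Endothelial-like cells had 21.2 and 6.91 CPM and oligodendrocyte-like cells 7.05 and 3.12 CPM. Free RNA was estimated at 21.01 and 9.78 CPM and at 7.81 and 7.55 CPM there. Whether cells of these 2 classes held Lrp1 of their own was not tested.

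A finer clustering resolved the oligodendrocyte lineage into 3 OPC-like clusters and an oligodendrocyte-like cluster led by Ermn. The OPC-like clusters were led by Pdgfra and Cspg4 (204 cells), by C1ql1 (439 cells) and by Bmp4 and Gpr17 (273 cells). Gpr17 and Bmp4 are known from precursors that have left the cycle and begun to differentiate, and Ermn from myelinating cells. The cluster led by Bmp4 and Gpr17 and then the Ermn cluster are put last from those known markers. The first 2 clusters shared Pdgfra, Matn4 and Pcdh15 among their leading genes, and those markers do not order them. No time course was measured. In all, 12 pairs of finer clusters were compared, chosen after the data had been seen.

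In the listed order, Apoe was lower in each OPC-like cluster than in the one before and higher again in the Ermn cluster. It was 12235 and 12208 CPM in the cluster led by Pdgfra and Cspg4, 6843 and 6236 CPM in that led by C1ql1, 700 and 741 CPM in that led by Bmp4 and Gpr17, and 1030 and 1144 CPM in the Ermn cluster. Lrp1 was lower at every step, from 902 and 1009 CPM to 551 and 571, to 64.2 and 56.3, and to 6.03 and 2.37 CPM. Between the first and second cluster these were the 2 of 9 genes that passed, where 10.2% of 13603 genes did. Apoe differed by 1.06 on the log2 scale (SE 0.34, adjusted p = 0.0400) and Lrp1 by 0.91 (SE 0.23, adjusted p = 0.00999). The cluster led by Pdgfra and Cspg4 was the shallowest, with a median of 1916 UMIs against 8373. Its free RNA estimate for Apoe was 780 and 222 CPM, and its astrocyte markers summed to 1853 and 1309 CPM, against 1423 and 1186 CPM in the C1ql1 cluster and 18710 and 20426 CPM in the astrocyte-like class.

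From the C1ql1 cluster to that led by Bmp4 and Gpr17, 7 of the 9 genes passed, where 41.7% of all genes did. Apoe, Clu, Abca1, Abcg1, Lpl and Lrp1 were lower in the latter, and Apod was higher. Apoe was lower by 2.75 on the log2 scale (SE 0.36, adjusted p = 6.11e-08) and Lrp1 by 2.77 (SE 0.25, adjusted p = 9.41e-12). Abca1 went from 111 and 145 CPM to 26.4 and 21.1 CPM. Apod was 53.5 and 28.7 CPM in the C1ql1 cluster, near its free RNA estimate of 54.6 and 39.6 CPM. From there to the Ermn cluster 4 of 9 passed, against 34.4% of all genes, and the exporters parted. Abcg1 was 12.2 and 12.7 CPM before and 133 and 130 CPM after, a rise of 3.63 on the log2 scale (SE 0.28, adjusted p = 1.52e-13), whereas Abca1 had 22.5 and 25.4 CPM after. Apod rose from 119 and 146 CPM to 2261 and 2716 CPM (log2 4.58, SE 0.46, adjusted p = 2.12e-10), Apoe by 0.94 (SE 0.34, adjusted p = 0.0279), and Lrp1 fell by a log2 difference of 3.27 (SE 0.29, adjusted p = 1.94e-12).

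**Figure D2:**
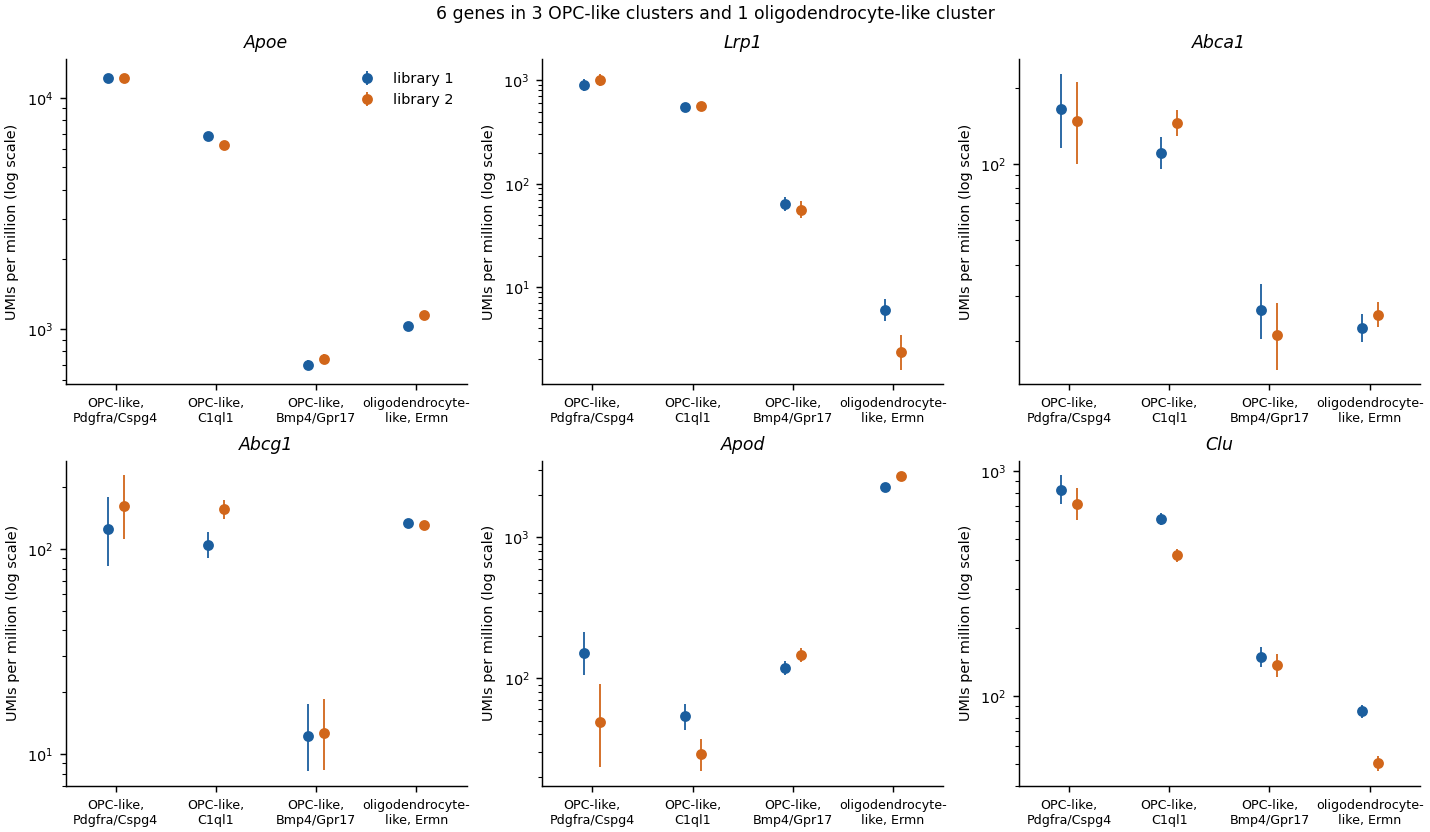
Points give the level of 6 genes in CPM on a log axis in 4 clusters named by their leading genes, for library 1 (blue) and library 2 (orange), with exact 95% Poisson intervals. Apoe and Lrp1 are highest in the leftmost cluster, Abcg1 is low only in the cluster led by Bmp4 and Gpr17, and Apod is high only in the oligodendrocyte-like cluster.

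A second oligodendrocyte-like cluster had a median of 22.3% mitochondrial UMIs. In it 4 of the 9 genes were higher than in the Ermn cluster, where 30.4% of all genes passed. Apoe had 2680 and 2812 CPM there (log2 1.58 higher, SE 0.34, adjusted p = 0.000521), Clu 231 and 84.4 CPM, Abca1 29.9 and 37.8 CPM and Lrp1 15.7 and 14.6 CPM. Foreign markers in it reached 16.9% and 4.96% of their overall level, against 5.35% and 4.38% in the Ermn cluster, and their part in these differences was not tested.

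Some of the high values in mixed classes came from few cells. Fibroblast-like cells, 35 in library 1 and 21 in library 2, fell into the mural-like class, and 69 and 59 of the 85 and 65 ependymal-like cells into the neuroblast-like class, which also holds cycling cells. The fibroblast-like cells held 81.1% and 96.0% of the Apod UMIs of the mural-like class, which without them had 158 and 70.6 CPM. The ependymal-like cells held 46.2% and 81.6% of the Apoe UMIs of the neuroblast-like class, which without them had 1191 and 682 CPM.

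Fibroblast-like cells, marked by Dcn, Col1a1 and Slc6a13, had the highest Apod of any cluster at 6334 and 16970 CPM, beside 14635 and 13280 CPM of Apoe and 670 and 775 CPM of Lrp1. Compared with the mural-like cluster led by Vtn and Kcnj8, genes of pericytes, 5 of the 9 genes were higher, where 10.4% of all genes passed. Apod was higher by 6.56 on the log2 scale (SE 0.53, adjusted p = 1.38e-11), Apoe by 3.03 (SE 0.37, adjusted p = 8.50e-08) and Abca1 by 3.06 (SE 0.37, adjusted p = 4.24e-08). Clu and Lrp1 were higher as well, by 1.66 and 1.03. Astrocyte markers summed to 2296 and 2375 CPM in fibroblast-like cells against 1141 and 869 CPM in the Vtn cluster, and the free RNA share was 18.1% and 13.5% against 14.9% and 12.4%. The free RNA estimate of Apoe in fibroblast-like cells was 975 and 756 CPM and that of Clu 145 and 115 CPM, and the part of these markers in the differences was not tested. The fibroblast-like cells of library 1 had a median of 1625 UMIs and those of library 2 a median of 5687, so that their Apod levels stand on unequal depths.

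Ependymal-like cells, which line the ventricle and carry Foxj1 and Tmem212, had 13018 and 15261 CPM of Apoe and 2209 and 2712 CPM of Clu. Their Apoc1 was 20.0 and 30.8 CPM from 13 and 17 UMIs, against 13.6 and 27.6 CPM in the astrocyte-like class. For Apoc1, ependymal-like cells did not pass against the astrocyte-like cluster led by Gja1 (log2 0.05, SE 0.49, adjusted p = 0.966). Against the neuroblast-like cluster led by Stmn2 they were higher in 5 of the 9 genes (Apoe, Clu, Apoc1, Abca1 and Lcat), where 33.6% of all genes passed. The difference of Apoe was 4.70 on the log2 scale (SE 0.39, adjusted p = 1.12e-11). The 9 astrocyte markers moved with these genes, with a summed level of 5112 and 6587 CPM in ependymal-like cells against 531 and 356 CPM in the Stmn2 cluster, and 22 of the 150 ependymal-like cells fell into the astrocyte-like class. Their part in these differences was not tested.

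The mural-like cells formed 3 finer clusters, of which the pair led by Vtn and Kcnj8 and by Acta2 was tested. The cluster led by Vtn and Kcnj8 had 333 and 393 CPM of Lrp1 and the cluster led by Acta2, a gene of smooth muscle, 106 and 115 CPM (log2 1.40 lower, SE 0.28, adjusted p = 0.000196). Lpl was 9.84 and 5.57 CPM in the former and 67.6 and 66.6 CPM in the latter (log2 3.15 higher, SE 0.67, adjusted p = 0.000242). In all, 6 of the 9 genes passed, 5 of them higher in the Vtn cluster, where 17.6% of all genes did. Its median depth was 2127 UMIs against 9468.5, and its free RNA share 14.9% and 12.4% against 5.45% and 2.83%. The remaining mural-like cluster, 63 cells led by Rgs5 and Vtn with a median of 15307 UMIs, also carried pericyte genes but had Lrp1 at 136 and 163 CPM, nearer to the Acta2 cluster, and Lpl at 22.1 and 11.7 CPM. Its free RNA share was 8.25% and 3.79%, and it entered none of the tests of finer clusters.

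**Figure D3:**
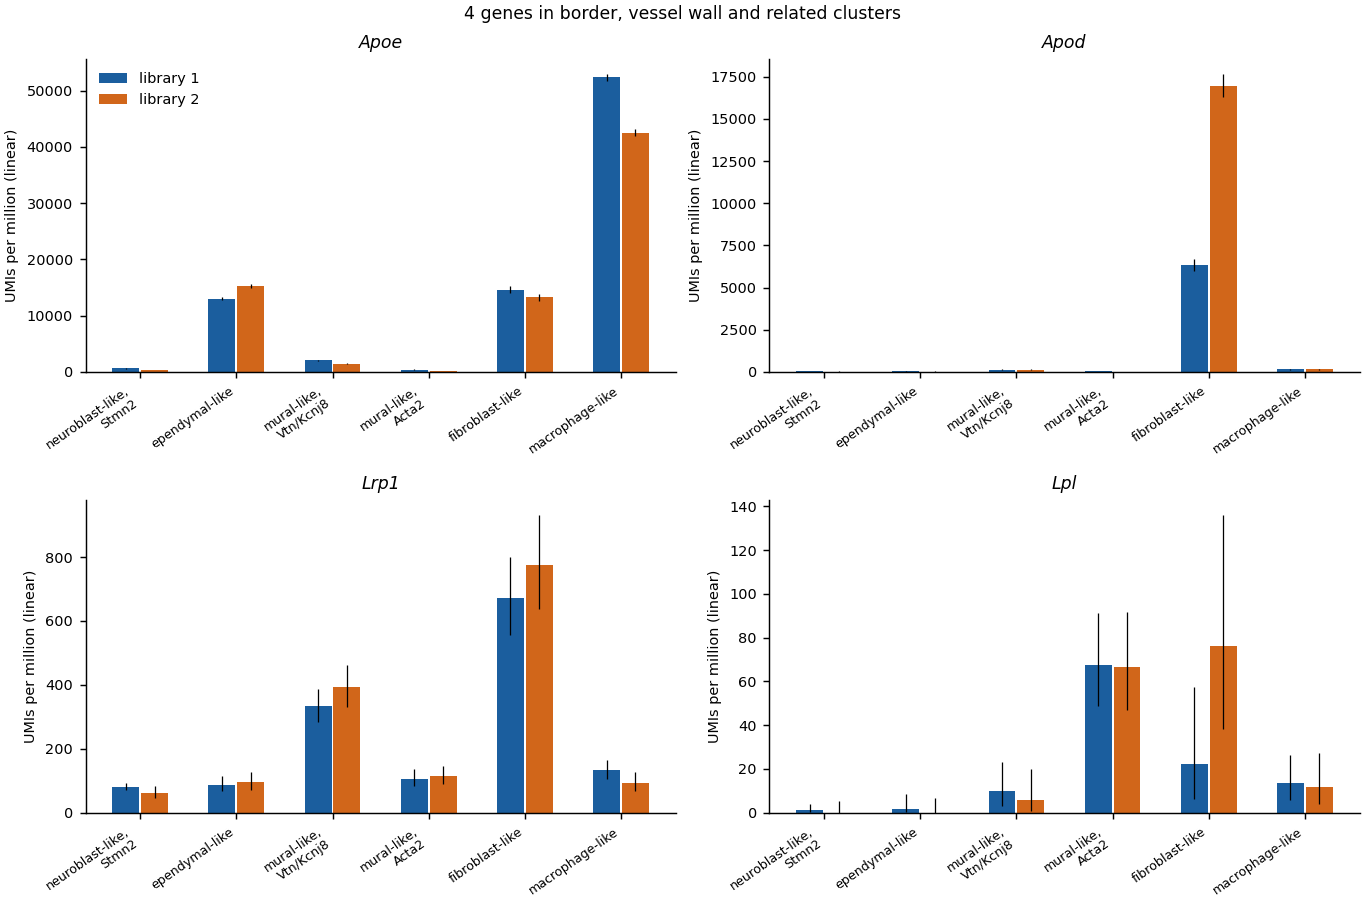
Bars give the level of 4 genes in CPM on linear axes in 6 clusters, for library 1 (blue) and library 2 (orange), with exact 95% Poisson intervals. Apod is high in fibroblast-like cells alone among these clusters, Apoe in macrophage-like, fibroblast-like and ependymal-like cells, and Lpl is higher in the mural-like cluster led by Acta2 than in that led by Vtn and Kcnj8.

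Subclusters of 2 other classes were compared as well. In microglia-like cells led by Ccl4, against those led by Cx3cr1, 1 of the 9 genes passed (3.17% of all genes). This was Clu with 345 and 148 CPM against 92.1 and 52.4 CPM (log2 1.68 higher, SE 0.43, adjusted p = 0.0238), and its free RNA estimate was 170 and 75.4 CPM against 39.3 and 32.5 CPM. Apoe had 3639 and 2954 CPM against 1717 and 1336 CPM, without overlap, and did not pass (log2 1.04, SE 0.34, adjusted p = 0.0837). Its free RNA estimate was 1146 and 495 CPM against 265 and 214 CPM, at median depths of 1232 against 6982 UMIs. The part of free RNA in the gap was not tested. Lcat (log2 2.50, adjusted p = 0.0581) and Apod (log2 1.44, adjusted p = 0.110) did not pass either. In astrocyte-like cells led by Grin2c, against those led by Gja1, 1 of 9 passed (3.46% of all genes). This was Apod with 156 and 86.1 CPM against 64.2 and 21.2 CPM (log2 1.59 higher, SE 0.46, adjusted p = 0.0414), beside free RNA estimates of 119 and 74.1 CPM against 37.7 and 25.6 CPM. Apoe was 31094 and 32510 CPM in the former and 29391 and 28104 CPM in the latter.

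The study compared Crym+ with Crym- astrocytes, and the 9 genes were followed over the same division of the astrocyte-like cells. Crym+ cells numbered 506 and 436, and Crym- cells 818 and 548. Crym+ cells were deeper, with medians of 2443 and 5239.5 UMIs against 1474 and 1975. Apoc1, Abcg1 and Lpl were found in too few cells to be tested. Of the other 6, Apoe was higher and Lcat and Apod were lower in Crym+ cells, where 4.23% of 6053 genes passed.

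Apoe was 32716 against 26242 CPM in library 1 and 31785 against 24941 CPM in library 2, Crym+ against Crym- (log2 0.30, SE 0.07, adjusted p = 0.0362). Clu had 6860 against 5560 CPM and 6333 against 5519 CPM and did not pass (log2 0.22, SE 0.07, adjusted p = 0.113). Astrocyte markers were also higher in Crym+ cells, summing to 19684 against 17679 CPM in library 1 and 21223 against 19442 CPM in library 2. Their part in the differences of Apoe and Clu was not tested. Lcat, the particle enzyme, went the other way, with 175 against 225 CPM and 189 against 254 CPM, and fell by 0.43 on the log2 scale (SE 0.09, adjusted p = 0.0199). Lrp1 was at 172 against 203 CPM and 187 against 232 CPM (log2 -0.30, SE 0.09, adjusted p = 0.0888), and Abca1 at 141 against 119 CPM and 198 against 184 CPM (log2 0.14, SE 0.10, adjusted p = 0.451). The Crym+ and Crym- values of Apoe, Clu, Lcat and Lrp1 did not overlap across libraries, but this is no test. The share of all tested genes for which this held was not counted.

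Apod fell by 0.89 on the log2 scale (SE 0.13, adjusted p = 0.00248), but its levels lay close to the free RNA estimate except in Crym- cells of library 1. It was measured at 68.6 and 26.9 CPM in Crym+ cells, beside estimates of 65.1 and 30.9 CPM, and at 130 and 46.7 CPM in Crym- cells, beside 82.1 and 44.6 CPM. Oligodendrocyte markers moved with it, from 2984 to 1460 CPM in library 1 and from 720 to 656 CPM in library 2 in sum, and their part in the difference was not tested. In groups matched for UMIs per cell, Apod differed by -0.03 on the log2 scale (adjusted p = 0.952), whereas Apoe (0.38), Lcat (-0.54) and Clu (0.23) passed. None of the members passed with DESeq2 (adjusted p = 0.0940 for Apoe and 0.587 for Lcat), without the library as a block (0.881 for both) or in thinned cells (0.376 and 0.0997). The groups of thinned cells were set anew from the thinned Crym counts and are not the same cells.

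**Figure D4:**
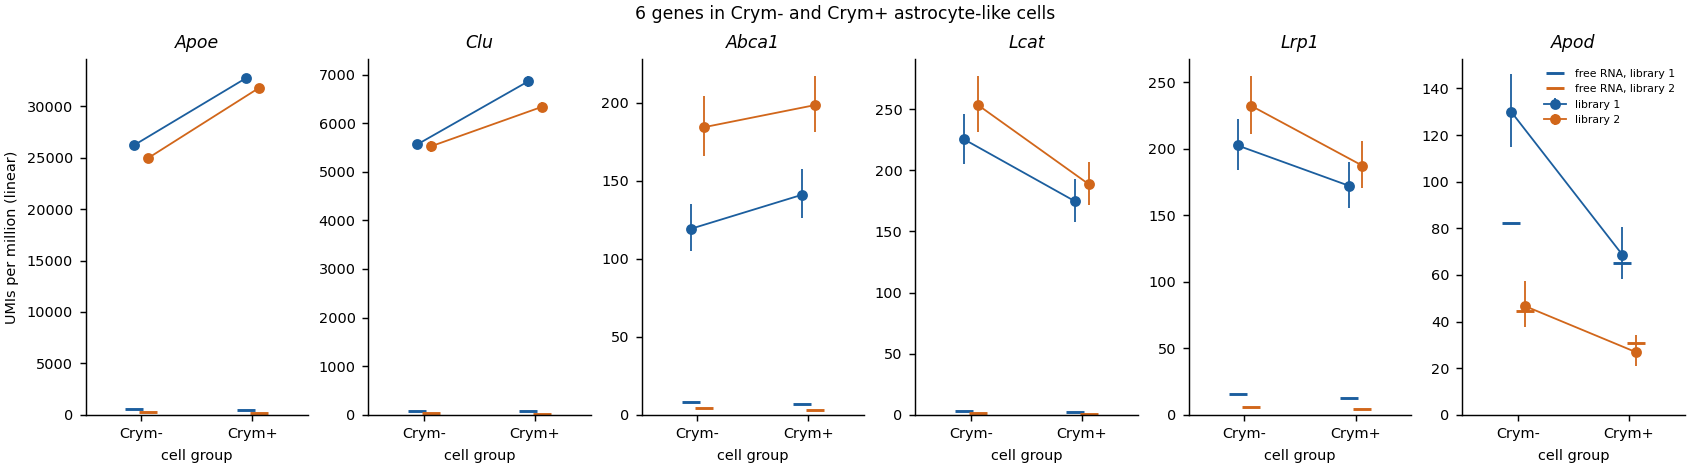
Points give the level of 6 genes in CPM on linear axes in Crym- and Crym+ astrocyte-like cells, for library 1 (blue) and library 2 (orange), with exact 95% Poisson intervals. Lines join the groups of a library, and dashes mark the free RNA estimate. Apoe and Clu are higher and Lcat and Lrp1 lower in Crym+ cells of both libraries, while the points of Apod lie near the dashes except in Crym- cells of library 1.

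The wider lipid pathway was read from a list of 53 genes, of which 43 were tested. In 22 of these a class was above every other class, where 42% of all tested genes had such a class. By role these were 6 of 8 tested receptors and their partners, 2 of 4 other apolipoproteins, 2 of 8 other ABC transporters, 2 of 5 remodelling proteins, 4 of 9 nuclear regulators and 6 of 9 genes of intracellular sterol handling. Oligodendrocyte-like cells led for 5, astrocyte-like and endothelial-like cells for 4 each, neuron-like and macrophage-like cells for 3 each, microglia-like cells for 2 and mural-like cells for 1. OPC-like and neuroblast-like cells led for none of them. How many of all tested genes each class led was not counted, so these numbers are not read as a trait of the pathway.

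Macrophage-like cells led for Cd36, a scavenger receptor, with 118 and 227 CPM, where none of the other 8 classes exceeded 1.29 CPM (log2 7.43, SE 0.75, adjusted p = 7.15e-07). They also led for Apoc2, the cofactor of lipoprotein lipase, with 6 and 10 UMIs. Astrocyte-like cells led for Apoc3, with 35 and 49 UMIs. Endothelial-like cells led for Pltp, the phospholipid transfer protein, with 2800 and 3168 CPM (log2 2.05 over mural-like cells, SE 0.39, adjusted p = 0.000680). They led as well for the receptors Lsr (365 and 370 CPM) and Scarb1 (124 and 132 CPM). Mural-like cells came next for all 3, with 33.0 and 54.0 CPM of Scarb1. Endothelial markers summed to 4894 and 5624 CPM in mural-like cells, against 22671 and 26126 CPM in endothelial-like cells. The part of such admixture in the mural-like levels of these 3 genes was not tested. Oligodendrocyte-like cells led for the transporters Abca2, with 637 and 731 CPM (log2 3.23 over neuron-like cells, SE 0.21, adjusted p = 1.34e-09), and Abca8a, with 29.1 and 40.5 CPM. Neuron-like cells led for Cyp46a1, the enzyme that turns cholesterol into 24-hydroxycholesterol, with 164 and 153 CPM (log2 1.97 over astrocyte-like cells, SE 0.25, adjusted p = 5.55e-06), and for the nuclear receptor Rxrg with 54.7 and 59.1 CPM. Microglia-like cells led for Mylip, an E3 ubiquitin ligase that marks lipoprotein receptors for degradation, with 284 and 274 CPM, and mural-like cells for the LXR gene Nr1h3 with 87.0 and 54.6 CPM. The other LXR gene, Nr1h2, was present in all 9 classes, from 20.0 CPM in neuron-like to 104 CPM in mural-like cells of library 2, and its highest class was above 4 of the other 8.

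**Figure D5:**
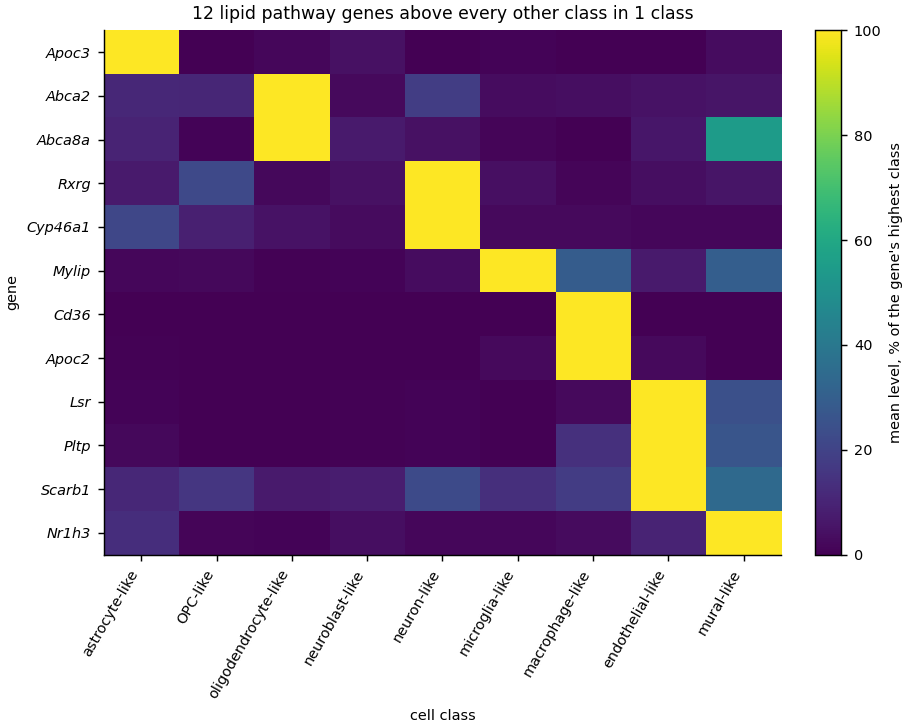
The colour gives the mean level of each of the 12 named pathway genes in 9 classes as a percentage of the class in which the gene is highest. Rows are grouped by that class, so that the brightest cell of each row marks it. Cd36 is nearly limited to macrophage-like cells, and none of the 12 genes is highest in OPC-like or neuroblast-like cells. Abca8a and Scarb1 are also seen in the mural-like class. That class carried endothelial markers and held fibroblast-like cells, and the part of either in these levels was not tested.

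Between Crym+ and Crym- astrocyte-like cells, 4 of 20 tested pathway genes passed, where 4.23% of 6053 genes did. The 3 named here were chosen after their values were seen. Pltp fell by 0.97 on the log2 scale (SE 0.18, adjusted p = 0.00956), the sorting receptor Sorl1 by 0.54 (SE 0.10, adjusted p = 0.0111), and the transporter Abca5 rose by 0.74 (SE 0.17, adjusted p = 0.0286). With DESeq2 none of these 3 passed, at an adjusted p between 0.0962 and 0.840, and without the block none did. The difference of Pltp was -0.12 with doublets kept and turned to 0.10 when cells with fewer than 500 detected genes were left out.

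The genes whose levels followed each member most closely over the 18 sums of class and library were found by Pearson's r of log2 CPM, with points that share libraries and depth. For Apoe these were Slc15a2 (0.92), Hp (0.87) and Slc14a1 (0.87). For Clu they were Cldn10, Slc1a2 and Ntsr2 (0.98 each), for Lcat Rapgef3os2 (0.94), Mt1 (0.92) and Htra1 (0.91), and for Apoc1 Fbrsl1 (0.87), Lrrc51 (0.85) and Spaca9 (0.85). For Apod they were Ptgds, Pdlim2 (0.93 each) and Ppp1r14a (0.92). Abca1 was followed by Zfp36l2 (0.96) and Crlf3 (0.92), and Abcg1 by Rap1gds1 (0.92), Dusp7 and Rnasek (0.89 each). For Lrp1 they were Pid1 (0.93), Cd302 (0.92) and Ramp1 (0.88), and for Lpl Camkk2 (0.89), Rtn4rl1 (0.87) and Speg (0.86). Among the members themselves, Clu and Lcat were closest (0.78), followed by Apoe and Abca1 (0.69).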

How the data were processed

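Transcripts of single cells from mouse striatum were counted in 2 libraries made with 10x Genomics kits. The authors deposited raw UMI counts per gene and barcode from Cell Ranger on mm10, without normalization. The file headers give Cell Ranger 4.0.0 and the submitters' processing notes 4.0, while the study's methods name an earlier version. The study's own cell filter, doublet removal and annotation are not part of the counts, and classes were rebuilt here, so values may differ from the study's for that reason. The members and lists were chosen with earlier results of these data known.

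Cells with at least 300 detected genes were kept and doublets (1.17% and 2.95%) removed by Scrublet (scanpy 1.11.5), for which 6% were expected. Seurat 5.3.0 in R 4.3.3 normalized cells to 10000 UMIs, selected 2000 variable genes, joined both libraries by canonical correlation analysis and clustered on 30 components at resolution 0.08, and at 0.32 for finer clusters, without the 9 members, 53 pathway genes and Crym. A cluster took a class name when at least 3 fixed markers were raised 2-fold (10 CPM added) and 1 was among its 50 leading genes. These thresholds were set after the counts had been seen. Cells were Crym+ at a natural log value above 0.25.

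UMIs were summed per library and class, cluster or Crym group and fitted in edgeR 4.0.16 (TMM, quasi-likelihood test, prior count 2), with the library as a block because all classes of a library share 1 suspension. Classes needed 20 cells in each library, which left 8 residual degrees of freedom in the class fit. The Crym fit, with 2 groups in 2 libraries, left far fewer, so its p-values lean mostly on spread shared between genes. P-values were adjusted by Benjamini-Hochberg over all genes of a pair, at a threshold of 0.05. Crym groups were tested over genes found in 10% or more of the Crym+ or of the Crym- cells. In simulated counts 200 genes were changed, drawn for the class pairs from the more highly expressed genes, with the same spread for every gene. Of 4-fold changes, with 15551 genes tested, the test recovered 95% (astrocyte-like against microglia-like) and 76.5% (neuron-like against macrophage-like). Of 2-fold changes between Crym groups, with 6053 genes tested, it recovered 73%, with 4 false calls. Recovery of sparsely counted genes in the class pairs, or of genes with a wider spread, was not simulated. The free RNA estimate is the median ratio of foreign markers in a class to their level in all cells, times the level of the gene in all cells. Exact 95% intervals cover counting error only. Named were all 9 members, at most 12 pathway genes above every other class by their smallest difference, and 3 correlated genes per member, of which some items are not reported here. Positions are from GENCODE M21 (GRCm38). The alternatives were DESeq2 1.42.0, library sizes alone, no filter on low genes, no block, resolution 0.32, doublets kept, at least 500 genes, under 20% mitochondrial UMIs, members left in the clustering, thinning to 1000 UMIs, matched UMI totals, at least 1 Crym UMI, free RNA subtracted and each library left out. The setting of at least 1 Crym UMI gave the same groups as the main split, with 506 and 436 Crym+ cells, so it is no separate check. Finer cluster pairs and the trimming of 3 mixed classes were added after seeing the data.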

Additional observations from a re-analysis of the deposited data

How the results depend on the processing

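With 2 libraries, a class fit rests on spread shared between genes, and the Crym fit does so still more. Classes of fewer than 200 cells or members of few UMIs (Apoc1, Lpl, Lcat outside astrocyte-like cells) limit what could be detected. Of the counts recomputed under another setting, 49 stayed within 1.5 times their first value and 5 did not. The number of members that passed between Crym+ and Crym- cells, 3 at first, was 0 with DESeq2 (4 at an unadjusted p under 0.05), 0 without the replicate block (2 at an unadjusted p under 0.05), 0 with cells thinned to 1000 UMIs (2 at an unadjusted p under 0.05) and 5 with at least 500 detected genes. Pathway genes above every other class numbered 22 at first and 12 with thinned cells. Thinning leaves fewer UMIs by construction, and for the other changes the cause was not tested. In thinned cells the Crym groups were also set anew from the thinned counts. They held 301 and 307 Crym+ and 677 and 574 Crym- cells, so they are not the groups compared at first. The replicate block followed from the design. Without the block 196 combinations of member and class pair passed in place of 210, and 5 members stayed above every other class. Trimming the 3 mixed classes changed calls of the edgeR test in both directions. Apod in mural-like over microglia-like cells no longer passed (adjusted p = 2.71e-07 before and 0.0506 after). Apoe in OPC-like over mural-like cells came to pass (0.0596 before and 0.000158 after).

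Directions turned in 4 cases, of which 1, Pltp, had passed the test at first. These were Lrp1 in microglia-like over OPC-like cells with library sizes alone (-0.17 on the log2 scale), Abca1 in macrophage-like over microglia-like cells in thinned cells (-0.33), Abca1 in Crym+ over Crym- cells in thinned cells (-0.23) and Pltp in Crym+ over Crym- cells with at least 500 detected genes (0.10). For Abca1 the thinned Crym groups are those set anew from thinned counts. Over the 36 pairs, library sizes alone shifted the median difference of all genes by -0.78 to 0.75 on the log2 scale against TMM, by over 0.1 in 31 pairs, and 0 member calls changed sign. The highest class is here that in CPM, which for Lrp1 was OPC-like cells, where the fit with TMM had microglia-like cells. It was kept by all 9 members when free RNA was subtracted and when library 2 was left out. It was kept by 8 without library 1, where Abcg1 was highest in microglia-like cells, by 8 with doublets kept (Abcg1 in OPC-like cells), by 8 under 20% mitochondrial UMIs (Lrp1 in microglia-like cells), by 7 with at least 500 detected genes (Apod and Lrp1 in fibroblast-like cells) and by 6 at resolution 0.32, where Apod and Lrp1 were highest in fibroblast-like and Apoc1 in ependymal-like cells. The cell filters were followed by a new clustering, so a class name need not hold the same cells. With at least 500 detected genes the neuron-like class had 795 and 449 cells, against 384 and 260 at first. Under 20% mitochondrial UMIs the OPC-like class had 677 and 473 cells, against 400 and 427. The leave-one-out settings left 1 library, so they gave values and no test.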
